A study of Mus musculus with 42 samples.

Results

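A set of 419 genomic regions carried a β-catenin peak in all 3 wild-type (WT) libraries and in none of the 3 libraries of cells that lack T/BRA, out of 96109 regions with a β-catenin peak in any of 9 libraries. To find them, the 20000 best peaks of each of the 9 β-catenin lists, ranked by the q-value of the peak caller, were merged wherever they overlapped by 1 bp or more. The regions were chosen by their calls in the WT and T/BraKO β-catenin lists, so these calls are a description and carry no test. The share of regions chosen this way was 0.436% of all merged regions, and 8.05% of the 5207 regions called in 3 of 3 WT lists.

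β-catenin is the transcriptional effector of the canonical WNT pathway. It does not bind DNA itself and is brought to regulatory elements by partners, best known among them the TCF/LEF factors, of which LEF1 is one. T/BRA (Brachyury) is a T-box transcription factor of the primitive streak and of mesoderm, and is itself induced by WNT. CDX factors are caudal homeodomain proteins, and SOX2 is an HMG-box factor of pluripotent and neural progenitors.

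All cells came from mouse embryonic stem (ES) cells of the HM1 (129) background and were collected at 72 h of differentiation in medium with bFGF and LGK974, which blocks WNT secretion. The GSK3 inhibitor CHIR99021, which stabilises β-catenin, was present for the last day in WT, in T/Bra-/- (T/BraKO) and in Cdx1/2/4-/- (CdxKO) cells, giving caudal epiblast-like cells in WT. SOX2 was also profiled in WT cells without CHIR99021 (noCHIR). Each antibody and condition had 3 libraries, described as independent biological replicates. Each genotype is a separate cell line, so an effect of the genotype and one of the line cannot be told apart. A library pools many cells, so fewer bound cells and less binding per cell cannot be told apart either. Peak lists hold no expression values, so neither the cell identity nor the loss of T/BRA could be checked here. Numbers of peaks ranged from 37687 to 469083 in the β-catenin lists, from 26940 to 1008922 in the SOX2 lists and from 175430 to 924506 in the LEF1 lists, which is why each list was taken to the same depth of 20000 peaks.

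The regions are shown first by sequence, as 201 bp of the GRCm38 (mm10) plus strand around the WT summit. Capitals mark letters of 4 motifs on either strand: T-box (AGGTGTGA), TCF/LEF (CTTTGAA or CTTTGAT), SOX (CCATTGT or CCTTTGT) and CDX (CAATAAA or CCATAAA or TAATAAA or TCATAAA). They also mark the 12 aligned letters of TCACACNNNNGTGTGA, a pair of T-box runs facing each other over a gap of 4 bp, of which up to 2 letters may differ. Such a palindromic arrangement is known from selection experiments with T protein, and it was searched for here after the values were seen. Outside any shared sequence family, the pair was marked near Gm10320 (chr13:98517897-98518097), Scara3 (chr14:65951070-65951270), Mesp1 (chr7:79789326-79789526) and Ttc29 (chr8:78148264-78148464). In Mesp1 the marked pair overlaps a CDX match, and in Ttc29 it overlaps the T-box motif.
Gm10320: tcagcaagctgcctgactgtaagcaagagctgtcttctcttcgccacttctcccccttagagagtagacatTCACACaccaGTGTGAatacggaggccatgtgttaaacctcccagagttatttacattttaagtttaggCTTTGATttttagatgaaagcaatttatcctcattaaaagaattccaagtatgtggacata
Scara3: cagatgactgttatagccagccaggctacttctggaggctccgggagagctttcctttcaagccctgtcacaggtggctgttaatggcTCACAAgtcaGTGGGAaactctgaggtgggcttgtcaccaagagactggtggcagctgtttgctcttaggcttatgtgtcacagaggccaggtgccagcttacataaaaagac
Mesp1: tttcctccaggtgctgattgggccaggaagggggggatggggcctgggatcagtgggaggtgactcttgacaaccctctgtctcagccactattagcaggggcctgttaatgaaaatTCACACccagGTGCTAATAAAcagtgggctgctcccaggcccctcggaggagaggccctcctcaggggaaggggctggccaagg
Ttc29: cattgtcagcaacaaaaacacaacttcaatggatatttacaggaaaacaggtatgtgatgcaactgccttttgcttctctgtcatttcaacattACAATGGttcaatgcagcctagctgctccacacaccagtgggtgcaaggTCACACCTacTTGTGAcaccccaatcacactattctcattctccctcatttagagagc

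A second set of sequences shows regions that resemble each other. The regions near Gsk3b (chr16:38037884-38038084) and Olfr889 (chr9:38125563-38125763) belong to 1 family, and their summit windows of 301 bp aligned with 90.3% identity over 257 bp. The TCF/LEF letters stand in both, while the facing pair passed the limit of 2 differing letters in Olfr889 and not in Gsk3b. The region near Cypt12 (chr3:17893419-17893619) belongs to another family, and is the member with the best mean WT rank.
Gsk3b: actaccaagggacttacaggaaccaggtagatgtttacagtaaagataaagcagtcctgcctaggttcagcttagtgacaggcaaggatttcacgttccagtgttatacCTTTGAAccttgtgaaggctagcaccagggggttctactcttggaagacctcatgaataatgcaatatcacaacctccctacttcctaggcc
Olfr889: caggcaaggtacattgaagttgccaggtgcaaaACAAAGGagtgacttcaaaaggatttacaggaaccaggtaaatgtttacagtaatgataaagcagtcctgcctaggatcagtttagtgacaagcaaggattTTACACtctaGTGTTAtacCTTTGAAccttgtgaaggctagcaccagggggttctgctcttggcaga
Cypt12: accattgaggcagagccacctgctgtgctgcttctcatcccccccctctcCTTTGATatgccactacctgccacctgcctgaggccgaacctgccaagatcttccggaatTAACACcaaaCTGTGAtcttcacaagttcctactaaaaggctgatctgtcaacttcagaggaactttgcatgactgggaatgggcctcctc

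The last set shows strong members with no facing pair and outside the families. The regions lie near Mmp21 (chr7:133680092-133680292), Rab8b (chr9:66920776-66920976) and Fgf8 (chr19:45722951-45723151). Mmp21 and Rab8b hold TCF/LEF letters close to the summit, and the Fgf8 region holds CDX letters. Shorter T-box runs are not marked: GTGTGA is also present in Mmp21 and Rab8b, and AGGTGT in Rab8b and Fgf8.
Mmp21: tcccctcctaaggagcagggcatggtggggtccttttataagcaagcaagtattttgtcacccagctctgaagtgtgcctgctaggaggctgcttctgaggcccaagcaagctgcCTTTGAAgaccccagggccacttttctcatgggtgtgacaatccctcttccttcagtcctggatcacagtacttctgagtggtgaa
Rab8b: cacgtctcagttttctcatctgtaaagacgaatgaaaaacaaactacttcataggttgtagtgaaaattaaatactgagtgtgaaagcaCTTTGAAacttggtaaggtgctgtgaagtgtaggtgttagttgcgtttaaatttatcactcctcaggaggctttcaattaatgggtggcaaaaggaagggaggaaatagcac
Fgf8: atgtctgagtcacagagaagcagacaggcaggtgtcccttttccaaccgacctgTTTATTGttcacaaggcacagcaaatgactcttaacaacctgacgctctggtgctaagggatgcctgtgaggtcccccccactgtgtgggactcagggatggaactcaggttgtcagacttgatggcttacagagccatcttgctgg

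The members were well-enriched β-catenin peaks in WT and CdxKO. Fold enrichment over the control as given by the peak caller had a median over the 419 members of 7.08, 13.1 and 14.9 in WT libraries 1 to 3. In the CdxKO libraries it was 11.9, 10.1 and 13.7, over the 381, 338 and 389 members with a peak in the full list. Members were weaker than retained regions, those called in 3 of 3 WT and 3 of 3 T/BraKO lists (n = 3866), in WT library 1, where the retained median was 13.0, and close to them in WT libraries 2 (12.3) and 3 (16.6). Members were also narrower, with a median width of 533 bp against 793 bp.

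Absence from the 20000 best peaks was not always absence from a T/BraKO list. In the full T/BraKO lists, peaks of any rank overlapped 31.3%, 26.4% and 24.4% of all merged regions. These shares include peaks among the 20000 best, which overlapped 20.4%, 20.3% and 20.4% of all merged regions. Members lack such peaks by the rule, so their shares cannot be set against those of all regions. The full lists overlapped 128 (30.5%), 52 (12.4%) and 75 (17.9%) of the members, always with peaks ranked below the 20000 best. Where a peak existed its median fold enrichment was 4.74, 4.71 and 4.05, low values that the rule fixes, since the fold enrichment at rank 20000 of these lists was 6.46, 5.66 and 5.16. In all, 237 members (56.6%) had no peak in any full T/BraKO list, 119 had one in 1 list, 53 in 2 lists and 10 in 3 lists. The members nearest to the limit of 20000 were those near Akap10 (rank 19993 in WT library 1), Srxn1 (rank 19938 in WT library 2) and Apob (rank 19903 in WT library 3). Just outside it were regions near Ssbp2 (rank 20026 in WT library 1), Adam6a (rank 20039 in WT library 3) and Jade1 (rank 20073 in WT library 1).

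To see how far a call in 1 library carried over, the rule was applied without each library in turn and read in the library left out. Regions chosen without a given T/BraKO library were called in it in 19.0%, 13.3% and 30.3% of cases for libraries 1 to 3. Regions retained without that library were called in it in 96.7%, 92.6% and 96.7%, and of all regions 20.3% to 20.4% were. Regions chosen without a given WT library were called in it in 51.3%, 59.7% and 60.6%, against 20.2% to 20.6% of all regions. Regions retained without that WT library were called in it in 95.7%, 86.3% and 82.7%. Regions chosen for absence from the other T/BraKO lists were thus called in the library left out at about the share of all regions, below it in libraries 1 and 2 and above it in library 3, and far less often than retained regions. The WT call carried over for 51.3% to 60.6%, above the share of all regions and well below that of retained regions.

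Most members kept their β-catenin peak in CdxKO, the other mutant line. A peak was called at 79.2%, 74.5% and 83.1% of members in CdxKO libraries 1 to 3 (78.9% ± 4.30, SD, n = 3), beside 86.4% ± 3.38 of retained regions and 20.4% of all regions. In 3 of 3 CdxKO lists, 269 members (64.2%) were called, 73 in 2 lists, 39 in 1 list and 38 in none. The background for 3 of 3 CdxKO lists was 5.69% of all merged regions, and among retained regions the share was 74.99%. A peak in all 3 WT lists with none in CdxKO had a background of 0.392% of all merged regions. Since members all have the WT calls, the closer comparison is 9.07% (38) of members against 5.07% (196) of retained regions in no CdxKO list. All these comparisons share the WT lists, so the values stand side by side with no test.

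The share kept in CdxKO followed the strength of the WT peak. Of the 114 members with a mean WT rank of up to 2500, 95.6% were called in 3 of 3 CdxKO lists, beside 91.4% of retained regions of the same ranks. For mean ranks between 2500 and 5000 the shares were 81.0% of 105 members and 71.2% of retained regions. They were 44.3% of 149 members and 53.4% of retained regions between 5000 and 10000. Above 10000 they were 17.6% of 51 members and 39.8% of retained regions. Members of mean rank up to 5000 thus had shares above those of retained regions of like rank and weaker members had shares below them, which was not tested over libraries. From the best ranks to the weakest, 68, 48, 55 and 14 of these members lay in the families of similar sequence described below. The part of this mix in the shares was not separated.

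SOX2 peaks among the 20000 best of each list were called at a minority of the members in every condition. In WT with CHIR99021 the shares were 8.59%, 15.8% and 30.8% (18.4% ± 11.3, SD, n = 3). In CdxKO they were 25.3%, 17.9% and 31.5% (24.9% ± 6.81), and in T/BraKO 6.44%, 8.59% and 7.16% (7.40% ± 1.09). The T/BraKO libraries lay below all others with CHIR99021 except WT library 1, which equalled T/BraKO library 2. In WT without CHIR99021 the shares were 9.55%, 8.83% and 8.83% (9.07% ± 0.413). Retained regions carried SOX2 peaks far more often, with group means of 45.0% in WT, 57.5% in CdxKO, 59.4% in T/BraKO and 44.7% without CHIR99021, so in T/BraKO their share was not low. All merged regions had group means of 6.12% in WT, 9.29% in CdxKO, 9.07% in T/BraKO and 9.08% without CHIR99021. By group mean, members thus lay above all regions in WT and CdxKO, below them in T/BraKO and close to them without CHIR99021. In the full lists, which differ in length, SOX2 peaks overlapped 58.0%, 47.0% and 62.5% of members in WT, 50.6%, 37.0% and 58.2% in CdxKO, 22.9%, 19.8% and 9.55% in T/BraKO and 20.8%, 21.2% and 25.1% without CHIR99021.

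Exact two-sided permutation tests over libraries were made for 7 comparisons of these shares, with Benjamini-Hochberg adjustment over the 7. With 3 libraries against 3 the smallest possible p is 0.1, so no such comparison can pass 0.05. Members were chosen for absent T/BraKO β-catenin calls, which favours a lower T/BraKO share for factors bound at the same sites. The tests of these shares do not account for that choice. The SOX2 share was lower in T/BraKO than in WT by 10.98 percentage points (exact permutation p = 0.2, adjusted p = 0.35). It differed by -6.52 points between WT and CdxKO (exact permutation p = 0.4, adjusted p = 0.467) and by 9.31 points between WT with and without CHIR99021 (exact permutation p = 0.4, adjusted p = 0.467). WT library 3 decided much of these values: without it the differences were 4.77 points against T/BraKO, -12.7 against CdxKO and 3.10 for CHIR99021. T/BraKO against the 6 libraries of WT and CdxKO differed by -14.2 points, which did not pass the threshold after adjustment (exact permutation p = 0.0476, adjusted p = 0.167).

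LEF1 peaks were also rarer at the members in T/BraKO. The shares were 9.31%, 14.1% and 21.0% in WT (14.8% ± 5.88, SD, n = 3), 18.4%, 14.3% and 12.6% in CdxKO (15.1% ± 2.95), and 1.91%, 2.63% and 2.15% in T/BraKO (2.23% ± 0.365). The highest T/BraKO value was below the lowest of WT and CdxKO. The difference between WT and T/BraKO was 12.57 points (exact permutation p = 0.1, the smallest possible, adjusted p = 0.233). T/BraKO against WT and CdxKO together differed by -12.7 points (exact permutation p = 0.0119, the smallest possible, adjusted p = 0.0833). As for SOX2, these tests do not account for the choice of members by T/BraKO β-catenin calls. WT and CdxKO differed by -0.318 points (exact permutation p = 0.9, adjusted p = 0.9). Retained regions had group means of 33.9% in WT, 40.8% in CdxKO and 31.2% in T/BraKO, and all regions 3.03%, 3.91% and 2.79%.

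**Figure D1:**
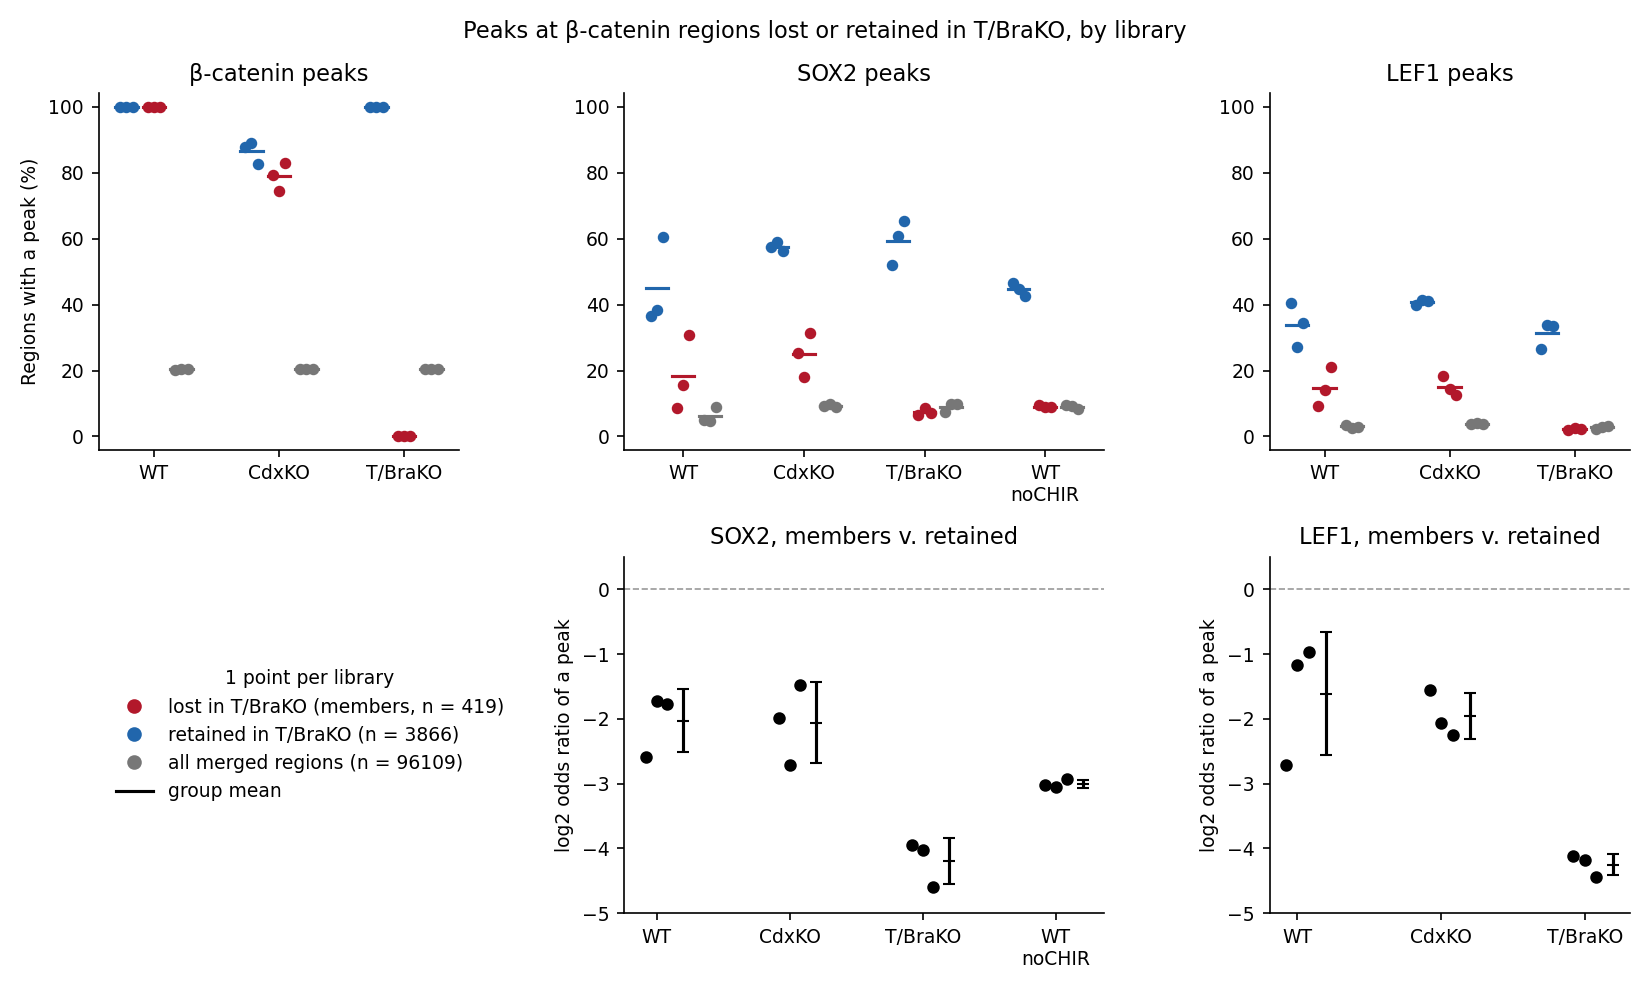
Upper plots show the percent of regions with a β-catenin, SOX2 or LEF1 peak among the 20000 best, 1 point per library and a line at each group mean, for members, retained regions and all regions. Lower plots show the log2 odds ratio of a SOX2 or LEF1 peak at members against retained regions with mean ± SD (n = 3 libraries), and the T/BraKO libraries lie lowest in both, between -4.60 and -3.95 for SOX2 and between -4.44 and -4.12 for LEF1.

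Members were also set against retained regions within each library, as an odds ratio. Both classes were chosen by T/BraKO β-catenin calls, members for none and retained regions for all. That choice favours a lower odds ratio in T/BraKO for factors bound at the same sites. The odds ratio of a peak at members against retained regions was below 1 in each of the 21 SOX2 and LEF1 libraries. On the log2 scale the SOX2 values averaged -2.03 ± 0.49 in WT, -2.06 ± 0.62 in CdxKO, -4.19 ± 0.36 in T/BraKO and -3.003 ± 0.07 without CHIR99021 (SD, n = 3). The LEF1 values averaged -1.61 ± 0.95 in WT, -1.96 ± 0.36 in CdxKO and -4.25 ± 0.17 in T/BraKO. In both factors the 3 T/BraKO libraries lay below the 6 others with CHIR99021.

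The tests of these odds ratios do not account for the choice of both classes by T/BraKO β-catenin calls. The difference of T/BraKO from WT and CdxKO together was -2.14 on the log2 scale for SOX2 (exact permutation p = 0.0119, the smallest possible, adjusted p = 0.0417). For LEF1 it was -2.46 (exact permutation p = 0.0119, adjusted p = 0.0417). Both passed the threshold of 0.05. In the same exact tests the adjusted p was 0.13 under the replicate block, and between 0.0625 and 0.125 when any 1 library was left out. Fewer assignments exist there and these tests could not pass 0.05, so they cannot show whether the result holds. Outside the families of similar sequence both remained past the threshold, at -2.04 and -1.88 (exact permutation, adjusted p = 0.0417 for each). WT and CdxKO differed by 0.03 for SOX2 (exact permutation p = 1) and by 0.34 for LEF1 (exact permutation p = 0.7, adjusted p = 0.817), and WT with and without CHIR99021 by 0.97 for SOX2 (exact permutation p = 0.1, adjusted p = 0.14).

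Few members lost a SOX2 or LEF1 call in the same all-or-none way. For SOX2, 7 members (1.67%) were called in 3 of 3 WT and 0 of 3 T/BraKO lists, beside a background of 0.0312% of all merged regions and 0.155% of retained regions. Among them are the regions near Rab8b, Fgf8, Snx29, Ces2h, Ttc29 and Olfr893. The full T/BraKO lists held SOX2 peaks of 5.41, 5.76 and 4.22 near Ces2h and 1 peak near Ttc29, and none near the other named regions. For LEF1, 6 members (1.43%) were, beside a background of 0.111% of all regions and 1.76% of retained regions. They lie near Actl6a, Cypt15, Fam114a2, Zpld1, Olfr889 and Tenm2. LEF1 peaks were present in 2 full T/BraKO lists near each of Actl6a, Olfr889 and Tenm2, in 1 near Cypt15 and Fam114a2, and in none near Zpld1. The LEF1 share was near that of retained regions, and the SOX2 share was above it, both without a test since members are not replicates.

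The members near Ttc29 and Rab8b differed in their SOX2 calls in CdxKO. At the region near Ttc29, SOX2 enrichment was 14.1, 11.2 and 13.8 in WT and 10.01, 13.1 and 6.83 in CdxKO, and the only T/BraKO peak was one of 4.45 in the full list of library 3. At the region near Rab8b, a small GTPase gene of vesicle transport, SOX2 enrichment was 9.25, 7.97 and 16.8 in WT. In CdxKO it was below the 20000 best in the libraries that had a peak at all (5.34 and 4.44 in libraries 2 and 3), and no T/BraKO list held a peak. The SOX2 call among the 20000 best was thus kept in CdxKO at the former and not at the latter.

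Sequence was shared among many members. A comparison of the 301 bp around each summit by BLAST (aligned length of at least 100 bp) placed 185 members (44.2%) in 3 families of similar sequence, against 373 retained regions (9.65%) and 1713 of all regions (1.78%). The families were built from members alone, and other regions joined one only by likeness to a member. A family absent from members could not be found, so the higher share in members is in part built in. Family 1 held 100 members (23.9%), and alignments between its members had a median identity of 81.7% and a median length of 246 bp. Family 2 held 73 members (17.4%; 76.9% over 231 bp) and family 3 held 12 (2.86%; 76.1% over 129 bp). Lower-case, repeat-masked letters of the reference made up 83.8% of the 201 bp window in family 1, 45.7% in family 2 and 12.6% in members outside the families, beside 18.3% in retained regions. Reads from near-identical copies can be placed on the wrong copy, so single members of a family are uncertain, and members of a family are not independent observations of a sequence.

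The share of regions in a family fell with the number of T/BraKO lists that held a peak. The high share in members is in part built in, since members defined the families. Of the WT 3 of 3 regions in family 1, 31.2% were members, in family 2 19.5% and in family 3 19.4%, beside 5.26% of those outside the families. Of all regions alike to family 1, 320 were called in 3 of 3 WT lists, 387 in 3 of 3 CdxKO lists and 132 in 3 of 3 T/BraKO lists. For family 2 the counts were 374, 408 and 273, and for family 3 they were 62, 68 and 49. The members themselves, chosen for this difference, make up 100, 73 and 12 of the regions called in WT in families 1 to 3, so the lower T/BraKO counts are in part built in. Beyond the members, families 1, 2 and 3 held 53, 35 and 1 regions called in 3 of 3 WT lists and 1 T/BraKO list, and 51, 50 and 8 with 2. In CdxKO, 83 of the 100 family 1 members and 55 of the 73 family 2 members (75.3%) were called in 3 of 3 lists, against 122 of the 234 members outside the families (52.1%).

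**Figure D2:**
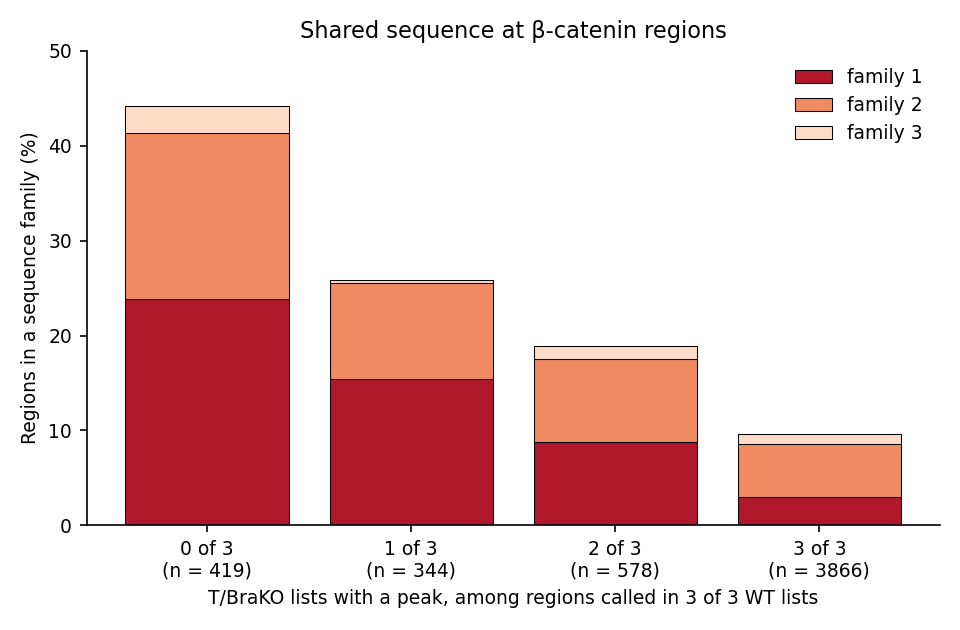
Stacked bars give the percent of regions in sequence families 1, 2 and 3, for regions called in 3 of 3 WT lists, by how many T/BraKO lists held a peak (0 of 3 are the 419 members, 3 of 3 the 3866 retained regions). The total is 44.2% at 0 of 3 lists and 9.65% at 3 of 3. The families were built from members alone, so the height of the bar at 0 of 3 is in part built in.

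Motif letters were counted within 100 bp of the summit, with 95% Wilson intervals that cover counting error only. The full 8-letter T-box motif was rare but more common in members, at 4.53% (19 of 419, 2.92 to 6.97), against 1.27% of retained regions and 1.37% of all regions. All 19 lay outside the families, where the share was 8.12% of 234. A 6-letter run of it, GTGTGA, chosen after the values were seen, was found in 41.5% of the members outside the families (35.3 to 47.9) and in 11.9% of the retained regions outside them (10.8 to 13.0). In family 1 it was as common in members (80.0%) as in retained regions (81.0%). It was found in 12.9% of all regions outside the families and in 11.5% of the members when the window was moved by 1000 bp. The share stepped down with the T/BraKO calls, to 22.4% of regions called in 1 and 15.1% in 2 of 3 T/BraKO lists.

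The facing pair separated the classes further. It was present in 109 members (26.0%), in 48.0% of family 1 members, in 8.22% of family 2 members and in 53 of the 234 members outside the families (22.6%, 17.8 to 28.4). Outside the families it was present in 1.03% of retained regions (0.745 to 1.42), in 1.42% of all regions and in 1.71% of members with the window moved. In regions gained in T/BraKO (0 of 3 WT and 3 of 3 T/BraKO lists, n = 562) the share was 1.25%, and in regions lost in CdxKO (n = 377) it was 0.531%. Within family 1, 41.4% of the retained regions also held the pair, so there it differed little between members and retained regions.

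The count depended on the gap. Outside the families, gaps of 2, 3, 4, 5 and 6 bp were matched by 9.83%, 0%, 22.6%, 1.71% and 4.70% of the members, where 0 of 234 allows a share of up to 1.62% by the Wilson interval. The pair lay at a median distance of 25 bp from the summit. Read the other way, 119 regions outside the families called in 3 of 3 WT lists held the pair, and 53 of them (44.5%) were members while 30.3% were retained. Of the 4332 without it, 4.18% were members and 79.8% were retained. These shares use the calls of the rule and are given as a description.

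**Figure D3:**
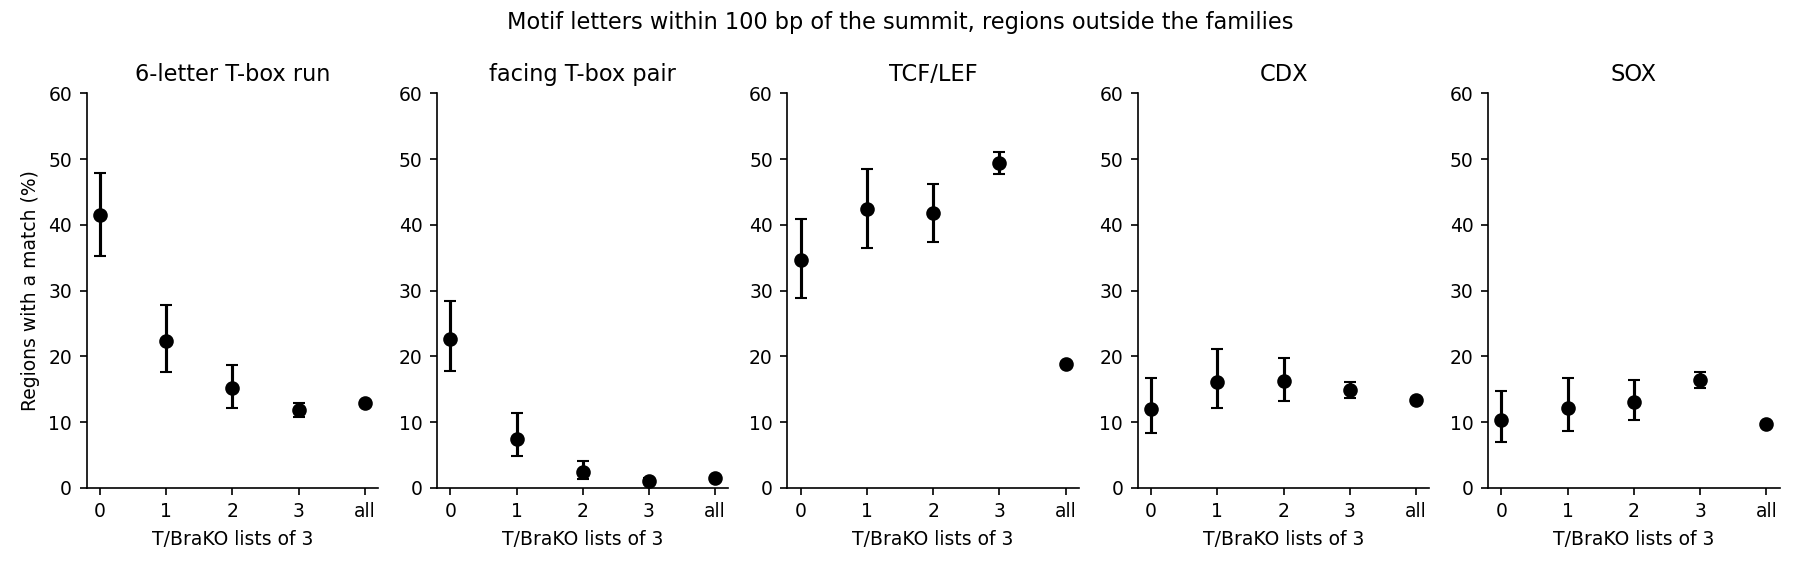
Points give the percent of regions outside the families with motif letters within 100 bp of the summit, with 95% Wilson intervals, by the number of T/BraKO lists of 3 with a peak among WT 3 of 3 regions, and for all regions. The 6-letter T-box run falls from 41.5% to 11.9% and the facing pair from 22.6% to 1.03% as the number of lists goes from 0 to 3, while TCF/LEF letters go from 34.6% to 49.5%.

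**Figure D4:**
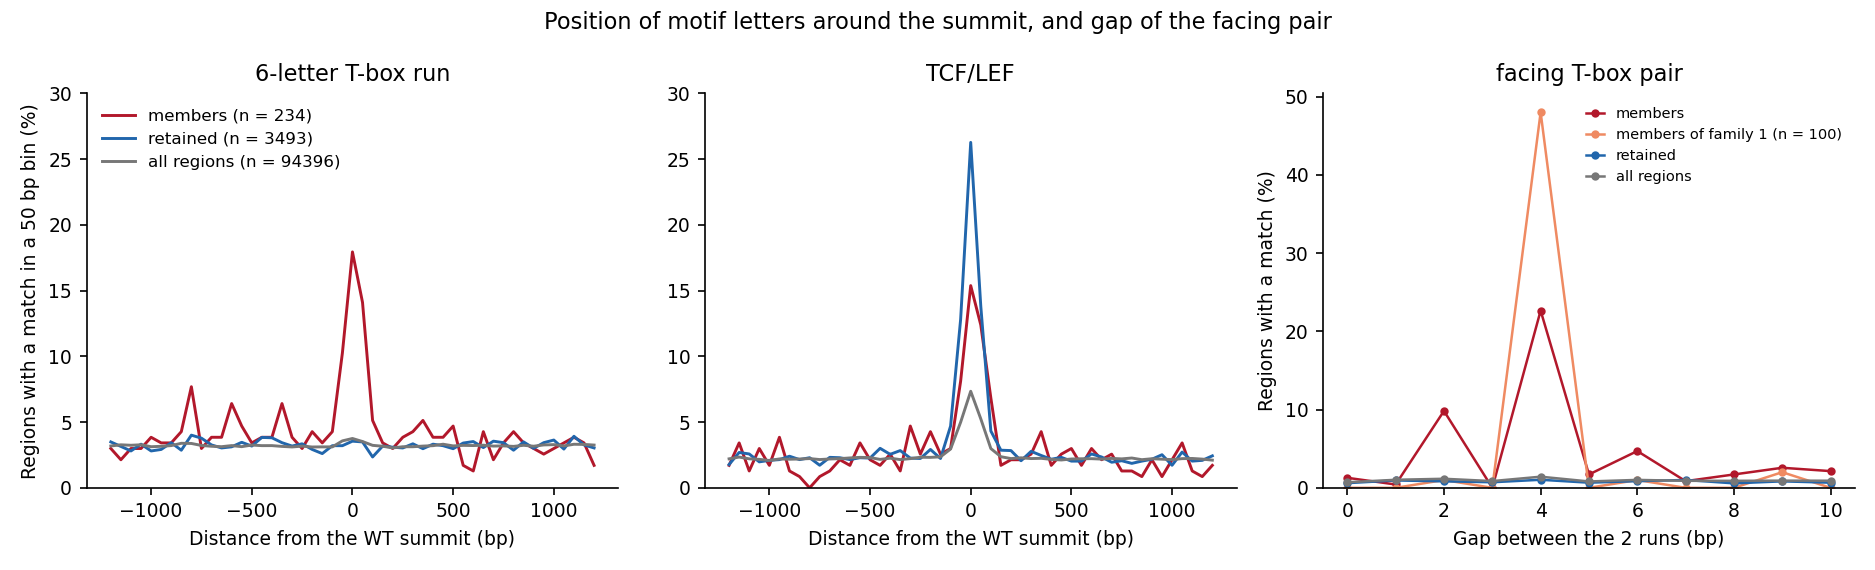
The left and middle plots give the percent of regions outside the families with the 6-letter T-box run or TCF/LEF letters in 50 bp bins by distance from the WT summit. The right plot gives the percent with the facing pair for gaps of 0 to 10 bp, with a peak at a gap of 4 bp of 22.6% in members outside the families and 48.0% in members of family 1.

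TCF/LEF letters were present in fewer members than retained regions. The share was 39.1% of members, above the 19.3% of all regions. Outside the families it was 34.6% of members against 49.5% of retained regions, in family 1 33.0% against 56.0%, and in family 2 52.1% against 76.4%. SOX letters were in 12.6% of members, 15.5% of retained regions and 9.78% of all regions. CDX letters were in 11.2% of members, 14.0% of retained regions and 13.3% of all regions.

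CDX letters were more common in members lost in CdxKO as well. Among the 38 members in none of the 3 CdxKO lists 31.6% held CDX letters, and among the 269 members in 3 of 3 CdxKO lists 7.43% did. Among the 377 regions lost in CdxKO (peak in all 3 WT lists and in no CdxKO list), whatever their T/BraKO calls, the share was 46.9%. The facing pair was found in 28.7% of the 122 members outside the families in 3 of 3 CdxKO lists and in 2 of 32 (6.25%) of those in none. These are small counts and were not tested. CDX letters and the 6-letter T-box run did not avoid each other: the run was in 23 of the 47 members with CDX letters, beside 44.2% of all members.

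By the protein-coding genes of GENCODE M21 alone, 66.1% of the 419 members were intergenic, 30.3% intronic and 3.58% exonic. Of retained regions 58.4% were intergenic and of all regions 51.8%. Outside the families the shares were close, at 55.6% of members and 56.0% of retained regions, while 76% of family 1 members and 86.3% of family 2 members were intergenic. The median distance to the nearest protein-coding transcription start was 38519 bp for members, 31852 bp for retained regions and 29803 bp for all regions. Within 1000 bp of a start lay 22 members (5.25%), against 9.23% of retained regions and 10.7% of all regions. The X chromosome held 20 members (4.77%, against 3.03% of retained regions), and outside the families 5 (2.14%). Nearest genes numbered 405, of which 13 were nearest to more than 1 member and only Rspo3 to 3. The nearest gene is a label of position and does not show that a region acts on it.

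Of 7 gene lists, the one of the T/BRA network and primitive streak (20 genes) was nearest to 7 members (1.67%), against 0.854% of retained and 0.302% of all regions. WNT targets and feedback genes were nearest to 3 members (0.716%, against 1.22% of retained and 0.427% of all regions), Hox, Cdx and cofactor genes to 2 (0.477%), pluripotency genes to 2 (0.477%) and caudal epiblast genes to 1 (0.239%). Of all regions these last 3 lists took 0.49%, 0.278% and 0.286%, and of retained regions 1.16%, 0.621% and 0.621%. Notch and somite genes and anterior neural genes were nearest to 0 members, beside 0.26% and 0.399% of all regions. Together the 7 lists took 15 members (3.58%), 5.33% of retained and 2.44% of all regions, so most members lay near genes of none of these lists.

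Among ligands, Rspo3 and Fgf8 stood near members. Rspo3, a secreted enhancer of WNT signalling, was nearest to 4 regions called in 3 of 3 WT lists, of which 3 were members. At the first, -18700 bp from its start (negative distances are upstream), β-catenin enrichment was 14.2, 25.6 and 24.6 in WT, 36.4, 5.90 and 29.2 in CdxKO, and 3.00 in T/BraKO library 3 with no peak in the other T/BraKO lists. The second, at -331066 bp, belonged to family 2 and was also called in 3 CdxKO lists, with peaks of 3.60 and 4.94 in the full lists of T/BraKO libraries 1 and 2. The third, at -289959 bp, had 14.5, 10.4 and 30.4 in WT and no peak in any CdxKO list, while the full lists of T/BraKO libraries 2 and 3 held peaks of 4.94 and 4.79. It held CDX letters. The 3 regions near 1 gene thus differed in what became of them in CdxKO.

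At the region 19633 bp from the start of Fgf8, the growth factor of the primitive streak and tail bud, enrichment was 31.8, 40.3 and 29.5 in WT, 19.2, 10.4 and 17.5 in CdxKO, and no full T/BraKO list held a peak. All 3 CdxKO values were below all 3 WT values there. SOX2 enrichment was 13.8, 8.41 and 8.27 in WT, and in CdxKO only library 3 held a peak (2.35, below the 20000 best). Fgf8 had 3 regions called in 3 of 3 WT lists, of which 1 was a member and 1 was retained. Fgf18, another FGF ligand, had a family 2 member at 39040 bp with 13.9, 14.3 and 18.1 in WT and 11.3, 5.55 and 6.34 in CdxKO. T/BraKO library 1 held a peak of 5.81 there, above the CdxKO library 2 value.

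Mesp1, Mesp2 and Msgn1, which encode mesoderm transcription factors, had members and no retained region. Mesp1 and Mesp2, neighbouring bHLH genes of early mesoderm and somites, each had 1 region called in 3 of 3 WT lists, and it was a member. At the Mesp1 region, 4362 bp from the start, enrichment was 15.99, 26.5 and 29.5 in WT, 24.0, 8.06 and 29.4 in CdxKO, and 5.17 and 4.00 in T/BraKO libraries 1 and 3. At the Mesp2 region, 83 bp from the start and within an exon, it was 5.05, 12.2 and 10.97 in WT and 12.2, 5.93 and 9.66 in CdxKO, with no peak in any T/BraKO list. It held the 8-letter T-box motif. At the region -23612 bp from Msgn1, a bHLH gene of presomitic mesoderm, enrichment was 11.04, 21.7 and 39.0 in WT, 22.3, 6.57 and 43.1 in CdxKO and 4.74 in T/BraKO library 1. At each of these 3 regions the WT and CdxKO ranges overlapped.

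Among WNT pathway genes the losses were partial. Lef1 had 2 members of its 7 regions called in 3 of 3 WT lists. At -75433 bp from Lef1, enrichment was 4.94, 9.23 and 17.5 in WT, 3.49, 4.54 and 10.8 in CdxKO, and 6.03 and 4.25 in T/BraKO libraries 1 and 3, so the ranges overlapped. At 30663 bp it was 5.16, 5.13 and 8.99 in WT, with single peaks of 5.17 in CdxKO library 2 and 3.60 in T/BraKO library 3. Sp8, a zinc finger factor of WNT-responsive tissue, had 1 member of 8, with 7.08, 8.69 and 8.27 in WT, no peak in CdxKO, and 6.03 and 5.35 in T/BraKO libraries 1 and 2. The other 5 regions of Lef1 and the other 7 of Sp8 were retained.

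Pluripotency and Hox genes gave single regions. Prdm14, a regulator of naive pluripotency and germ cells, had 2 regions called in 3 of 3 WT lists, of which 1 was a member and 0 were retained. At that member, 53663 bp from the start, enrichment was 9.17, 23.9 and 29.2 in WT and 26.8, 16.5 and 20.2 in CdxKO, with no T/BraKO peak. At 242837 bp from Klf5, another pluripotency factor, it was 6.30, 10.8 and 14.7 in WT and 8.29, 5.06 and 4.77 in CdxKO, with no T/BraKO peak. At -1855 bp from Hoxd3 it was 5.77, 7.38 and 17.1 in WT, and peaks of 2.80, 4.94 and 4.79 were present in the full T/BraKO lists. At 55298 bp from Meis2, a Hox cofactor gene, it was 5.90, 7.82 and 11.4 in WT, no CdxKO list called it among its 20000 best, and the full list of T/BraKO library 3 held a peak of 4.42. The Prdm14 region was called in 3 of 3 CdxKO lists, and the Hoxd3 region in 2.

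Of the 15 members with the best mean WT rank, only the Fgf8 region was nearest to a gene of these lists. By mean WT rank the first was the region near Cypt12, -54891 bp from its start, with 43.4, 76.9 and 73.9 in WT, 82.5, 38.1 and 105 in CdxKO and no T/BraKO peak. The regions near Actl6a, Brinp3, Cypt15, Oprm1 and Adam6a belonged to the same family 2, that near Gsk3b to family 1 and that near 9530068E07Rik to family 3. The remaining 7 of the best 15 lay outside the families, near Gm10320, Mmp21, Rab8b, Scara3, Fgf8, Fam114a2 and Scn4b. The Mmp21 region, at -131 bp from the start of a metalloproteinase gene known for left-right patterning, was the only one of the 15 within 1000 bp of a start. It had 29.7, 59.1 and 45.8 in WT, 50.6, 27.6 and 50.2 in CdxKO and no T/BraKO peak. All 15 were called in 3 of 3 CdxKO lists, and 9 of them had a peak below the 20000 best in a full T/BraKO list.

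**Figure D5:**
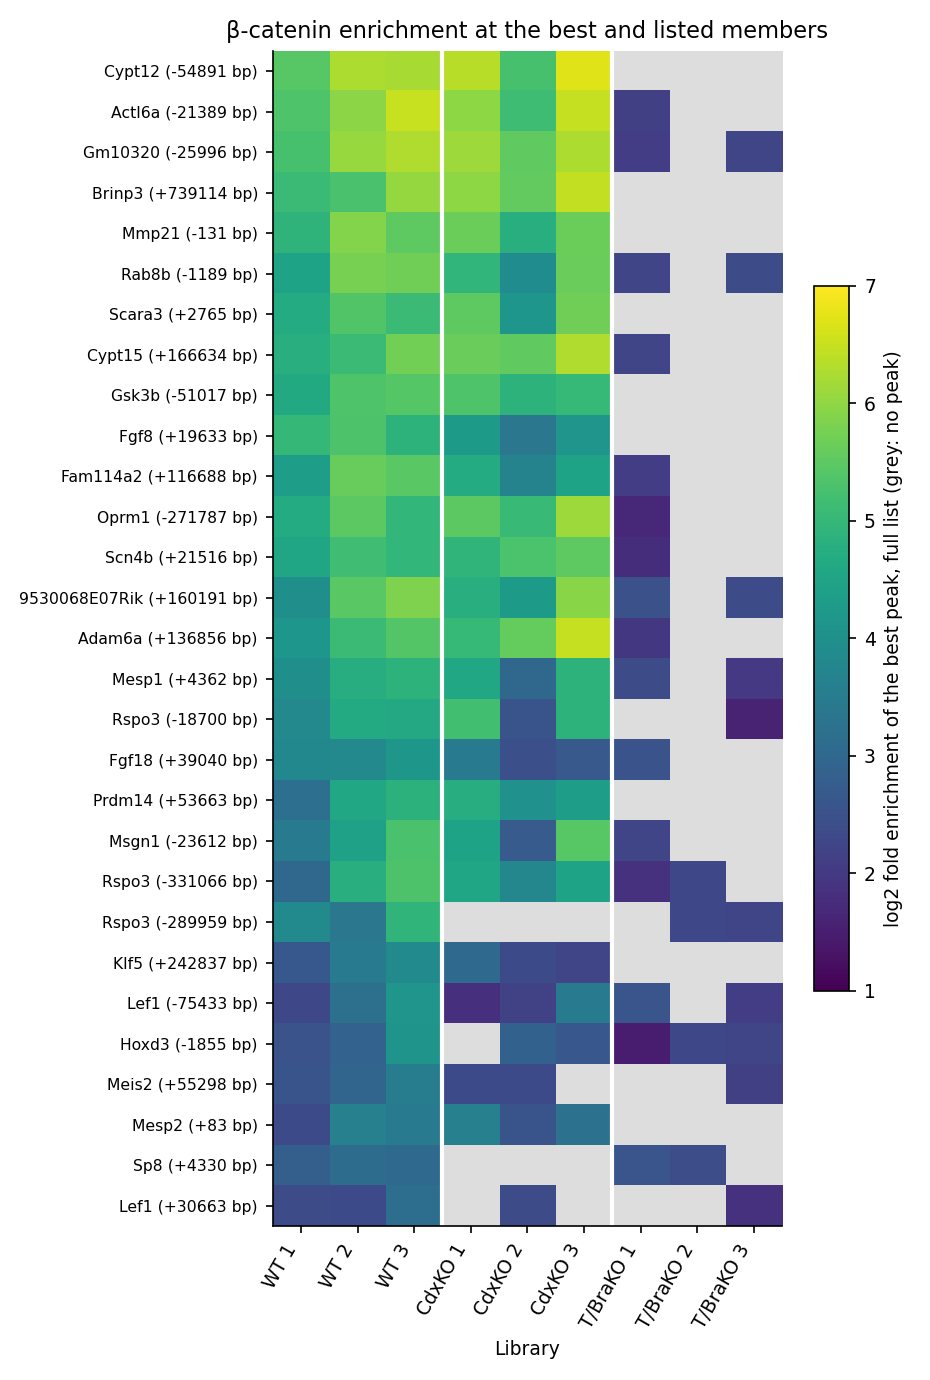
Colours give the log2 fold enrichment of the best β-catenin peak in the full list of each of the 9 libraries (columns) at 29 members (rows, nearest gene and distance from its start), namely the 15 best by mean WT rank and those nearest to a listed gene, and grey marks no peak. WT and CdxKO columns are filled for most rows, and the T/BraKO columns are mostly grey, with no value above 6.03-fold.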

How the data were processed

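The chromatin immunoprecipitation libraries were single-end. Per the labels and the methods of the study, the authors trimmed the reads, aligned them to mm10 with BWA and called narrow peaks with MACS2 in each library separately, within the nf-core/chipseq pipeline. The choice of control input for each list is not given in the sources used here. Each deposited list gives fold enrichment, a ratio over the control, and −log10 p-values and q-values of each peak, as the authors' peak caller wrote them. Read counts and signal tracks were not used here, so depth is known only through list lengths, and 12 input libraries had no peak list among the files used. All 30 lists carry the labels of 1 experiment.

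The members and lists of genes were chosen with earlier results of these data known. The 20000 best peaks of each list (by q-value, then p-value, then fold) on chromosomes 1 to 19, X and Y were used, and a region counted as called where a peak overlapped it by 1 bp or more. The WT summit was the centre of motif windows of 100 bp on each side. Shares carry 95% Wilson intervals. Odds ratios had 0.5 added to each cell. Groups were compared over libraries with exact permutation tests, two-sided, with Benjamini-Hochberg adjustment over 7 tests per measure and a threshold of 0.05. Families came from BLAST+ 2.17.0 (E-value up to 1e-10, at least 10 members). Genes were the nearest protein-coding start in GENCODE M21, and sequences came from GRCm38. Named regions were the 15 best by mean WT rank, members nearest to a listed gene, members whose SOX2 or LEF1 calls were lost alike, and regions at the limit of the rule; 1 of them is not reported here. Sequences printed with a facing pair were partly chosen after their values were seen. Python 3.11.15, NumPy 2.4.6, pandas 2.3.3, SciPy 1.17.1 and matplotlib 3.10.9 were used, and the tests were tried on simulated data. Alternatives changed the number of peaks, the ranking, the overlap window, the libraries, the block and the motif settings.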

Additional observations from a re-analysis of the deposited data

Results flagged for a closer look

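The log2 odds ratio of a SOX2 peak at members against retained regions differed between T/BraKO and the WT and CdxKO libraries by -2.14, and that of a LEF1 peak by -2.46 (exact permutation p = 0.0119 for each, adjusted p = 0.0417). All 3 T/BraKO libraries lay below all 6 WT and CdxKO libraries with CHIR99021 in both factors. The β-catenin lists that chose the members are from other libraries of the same cell lines, and the part of the cell line in these differences was not tested. Members and retained regions were chosen by opposite T/BraKO β-catenin calls, a choice that favours a lower odds ratio in T/BraKO.

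Peaks ranked below the 20000 best, which the rule does not read, overlapped 30.5%, 12.4% and 17.9% of the members in T/BraKO β-catenin libraries 1 to 3. The lists they come from hold 132907, 61413 and 37687 peaks. Over any rank, these lists overlapped 31.3%, 26.4% and 24.4% of all merged regions. Those shares include peaks among the 20000 best, at 20.4%, 20.3% and 20.4% of all regions, which members lack by the rule.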

How the results depend on the processing

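Over all results and alternatives, 189 values kept their direction and their side of the threshold or lay within their error, 20 were weaker, 2 stronger, 19 moved and 10 reversed. Members numbered 660 when full lists were used, 237 when no peak in any full T/BraKO list was allowed, and 483 to 816 with 1 library left out. Of the members, 35.1% were found again from the 5000 best peaks, 63.2% from the 10000 best, 97.1% from summit windows and 89.3% with ranking by fold enrichment. Alternatives on members outside the families, on the shorter T-box runs and on the facing pair were chosen after seeing the data.

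The SOX2 share of WT less T/BraKO ranged from 4.77 to 15.9 points with 1 library left out and was 38.4 with full lists, and that of WT with less without CHIR99021 from 3.10 to 14.2, and 33.5 with full lists. The difference of the SOX2 share between WT and CdxKO ranged from -12.7 to -1.63 with 1 library left out and changed sign with the 5000 best peaks (0.159 points) and full lists (7.24 points). That of the LEF1 share did so outside the families (0.57 points) and ranged from -3.42 to 2.43 with 1 library left out, turning without LEF1 WT library 1 (2.43), WT library 2 (0.0398) or CdxKO library 1 (1.31). The SOX2 log2 odds ratio of WT against CdxKO was -0.069 outside the families and ranged from -0.30 to 0.32 with 1 library left out, with values below 0 of -0.13, -0.10 and -0.30. With at most 3 libraries against 3, none of these could pass the test. With full lists the share in T/BraKO against WT and CdxKO passed the threshold, at -34.8 points for SOX2 and -23.5 for LEF1 (exact permutation, adjusted p = 0.0417). These tests account neither for the unequal list lengths nor for the choice of members by T/BraKO β-catenin calls. The SOX2 lists ran from 26940 peaks in T/BraKO library 3 to 1008922 in WT library 1. The cause of these changes was not tested.

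The T/BraKO log2 odds ratios of -2.14 for SOX2 and -2.46 for LEF1 kept that value under the replicate block, with exact permutation p = 0.037 and adjusted p = 0.13. With 1 library left out they ranged from -2.28 to -1.94 and from -2.65 to -2.30. None was past the threshold in either setting, and with the fewer assignments to draw from none could be. Correlations of same-numbered libraries ranged from -0.11 to 0.24, so the numbers were not taken to pair the samples.

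Motif shares depended on window and letters. T-box letters were in 2.62% of members within 50 bp, 8.12% outside the families, 14.8% with AGGTGT, 17.4% with GGTGTGA, 44.2% with GTGTGA and 26.0% with the facing pair. CDX letters were in 6.44% within 50 bp and 31.5% within 250 bp, SOX letters in 4.53% and 27.7%, and TCF/LEF letters in 25.8% and 47.3%, with 32.9% to 41.8% when 1 library was left out. Peak lists without read counts limit the precision of absence: a region below the 20000 best peaks may still be bound.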
